A study of Mus musculus with 4 samples.

Results

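The transcripts described here encode 10 integrin chains that leukocytes use for adhesion and that are used to stage natural killer (NK) cells, namely Itgam, Itgal, Itgax, Itgb2, Itga2, Itga1, Itga4, Itgae, Itgb1 and Itgb7. They were taken by symbol from a table of 35798 named genes, and all 10 passed the filter on low counts that left 13822 genes for testing. RNA came from Ly49H+ NK cells of wild-type donors, which carry CD45.1, and of TNFR2 KO donors, which carry CD45.2 and lack a functional Tnfrsf1b gene. Cells of both donors were placed together in NSG mice, all hosts were infected with murine cytomegalovirus (MCMV), and the cells were recovered from spleen on D3.5 by NK cell enrichment and sorting on Ly49H and the CD45 allele. Each genotype has 2 libraries, every one made from pooled spleens of 3 hosts, and a wild-type and a TNFR2 KO library with the same number came from the same pool. The labels give no age for the animals, and the methods of the study give one range in weeks for all its mice, which covers young adults. No group analysed here carries CD45.2 with intact TNFR2, so genotype, CD45 allele and sort gate cannot be told apart. NSG mice lack T, B and NK cells of their own but keep myeloid cells. Nothing states that the duplicates hold cells of separate donors, and p-values then measure only the spread between these pools.

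Integrins are heterodimers of an alpha and a beta chain that span the membrane, bind ligands on other cells or in the matrix and are switched to a high-affinity state by signals from inside the cell. On NK cells the beta2 family (here Itgb2 with Itgal, Itgam or Itgax) serves conjugate formation with target cells and binding to ICAM and complement fragments. The beta1 family (here Itgb1 with Itga1, Itga2 or Itga4) binds collagens, VCAM-1 and fibronectin. Itgb7 pairs with Itga4 or Itgae to bind MAdCAM-1 or E-cadherin. In the mouse, CD49b (Itga2) marks NK cells, CD11b (Itgam) rises as they mature, and CD49a (Itga1) and CD103 (Itgae) are known from tissue-resident cells.

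Values are CPM, the counts of a gene set against the total count of its library, after TMM scaling, which places the bulk of genes near no change. Positive log2-fold changes mean more in TNFR2 KO, and standard errors (SE) and adjusted p-values come from the quasi-likelihood test of edgeR, with the adjustment of Benjamini and Hochberg over all genes tested. Library totals ran from 32713054 to 39543464 counts. Tnfrsf1b itself measured 265 and 269 CPM in wild-type cells against 55.1 and 58.6 CPM in TNFR2 KO cells. All 29 NK lineage genes tested rose in TNFR2 KO, with a median log2-fold change of 0.92 and a summed level of 18106 and 18209 CPM in wild-type cells against 33202 and 33572 CPM in TNFR2 KO cells. Markers of myeloid cells moved the other way, with 34 of 36 tested macrophage or monocyte markers, 20 of 20 neutrophil or granulocyte precursor markers and 12 of 14 mast cell or basophil markers falling. The summed macrophage or monocyte level was 4840 and 4899 CPM in wild-type cells and 1272 and 1288 CPM in TNFR2 KO cells, and of its 37 markers only Clec4f was at 0 in every library. In bulk RNA, fewer cells of a type and less RNA per cell cannot be told apart. The part of these shifts in the integrin results was not tested. The marker lists were chosen with earlier results of these data known, so their counts are descriptions and not tests. At an adjusted p under 0.05, 24.2% of all genes tested rose and 26.2% fell.

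All 10 integrin chains had both TNFR2 KO libraries above both wild-type libraries, a pattern seen in that direction in 36.4% of all genes tested and in the opposite direction in 37.7%. A call at an adjusted p under 0.05 was made for 50.4% of all genes, upwards for 24.2% and downwards for 26.2%. Of the 10 chains, 9 rose and 0 fell at that limit. The median log2-fold change of the 10 was 0.47, against -0.003 for all genes tested. Itgax was the only chain past a log2-fold change of 1 as well, a combination reached upwards by 1.56% of all genes, with Itgam just under that limit. Together the 10 genes took 0.673% and 0.677% of all counts from wild-type cells and 0.872% and 0.883% of those from TNFR2 KO cells. These directions depend on how the libraries are placed on a common scale. When the libraries were scaled on the NK lineage genes instead of TMM, the median of all genes moved to -0.88, only Itgax and Itgam remained higher at an adjusted p under 0.05, and 6 chains were lower.

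**Figure D1:**
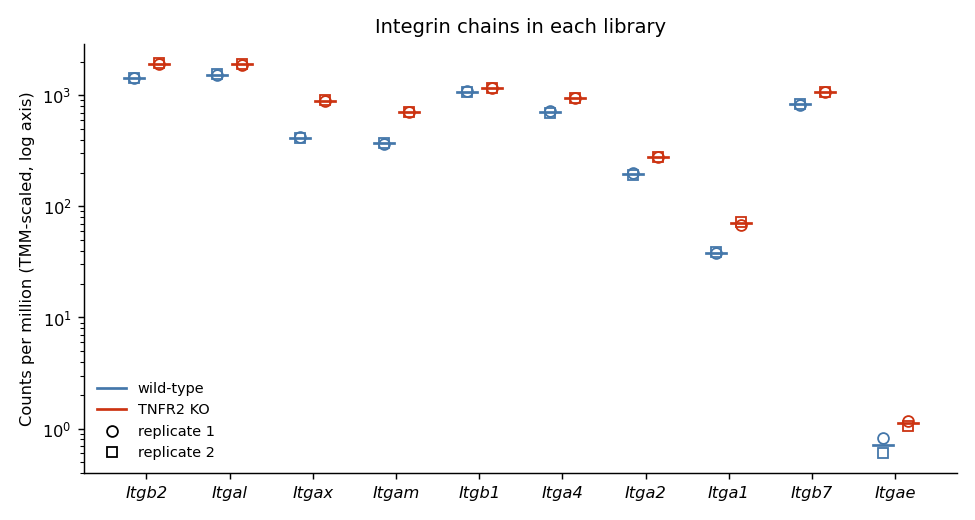
TMM-scaled CPM (log axis) of the 10 integrin chains in each library, with wild-type in blue, TNFR2 KO in red, circles for replicate 1, squares for replicate 2 and a bar at each group mean. The red symbols lie above the blue ones for every gene, by the most for Itgax (414 CPM against 895 CPM on average) and by the least for Itgb1 (1079 CPM against 1164 CPM); under scaling on NK lineage genes 7 of the 10 chains turn lower.

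Among the chains described here, the beta2 alpha chains Itgal, Itgam and Itgax lie on chromosome 7, with Itgam and Itgax as near neighbours. On GRCm38, Itgam runs from 128062640 to 128118491 and Itgax from 128129547 to 128150657, both on the plus strand, with Itgad next to them from 128154376 to 128223816. Itgal lies apart on the same chromosome and strand, from 127296260 to 127335138. Since Itgam and Itgax showed the highest changes and stand side by side, the 100 bases before their RefSeq starts (GRCm38.p6) are given here at chr7:128062540-128062639 and chr7:128129450-128129549, beside those of Itgb1, the chain that changed least, at chr8:128685554-128685653. All 3 are on the plus strand and written 5′ to 3′, with capitals at each GAGGAA or, from the other strand, TTCCTC, the core letters bound by PU.1, a myeloid and lymphoid factor.
Itgam: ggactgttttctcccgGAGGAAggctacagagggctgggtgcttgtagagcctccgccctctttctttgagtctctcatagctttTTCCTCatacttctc
Itgax: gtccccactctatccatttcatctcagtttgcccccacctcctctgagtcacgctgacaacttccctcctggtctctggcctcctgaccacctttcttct
Itgb1: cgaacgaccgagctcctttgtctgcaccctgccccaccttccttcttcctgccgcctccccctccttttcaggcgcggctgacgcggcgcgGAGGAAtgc
The Itgam window holds these letters at 84 and 15 bases before the start and the Itgb1 window at 9, while the 250 bases before Itgax hold none. RefSeq windows were matched for 7 of the 10 chains, and 2 of the 7 held the letters in those 250 bases, against 23.3% of 32851 windows of that length. TGTGGT (the core letters of RUNX sites, either strand) stood in 1 of the 7, that of Itga4, against 14.0% of all windows, and AGGTGT (the core letters of T-box sites, either strand) in 0 of the 7, against 11.8%. No match overlapped another, and a match is a description of letters, not of binding.

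Itgax, which encodes the alpha chain CD11c, is best known from dendritic cells and is also carried by mouse NK cells. It measured 419 and 409 CPM in wild-type cells and 882 and 908 CPM in TNFR2 KO cells. Both TNFR2 KO values were more than those of either wild-type library, and the gap was far wider than that between duplicates. Its log2-fold change was 1.11 (SE 0.0256, adjusted p = 3.07e-12 by edgeR), and leaving out any 1 library kept it between 1.10 and 1.14. Itgam encodes CD11b, the alpha chain of complement receptor CR3. Its level was 368 and 370.3 CPM in wild-type cells and 707 and 706 CPM in TNFR2 KO cells. Duplicates were almost equal and the groups did not overlap. The log2-fold change was 0.94 (SE 0.0234, adjusted p = 6.82e-12 by edgeR). Both directions were kept under every alternative, down to 0.23 for Itgax and 0.06 (adjusted p = 0.0446) for Itgam with scaling on NK lineage genes.

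Macrophages and granulocytes also carry Itgam and dendritic cells Itgax, and the 2 genes rose in the libraries in which the macrophage, neutrophil and dendritic cell marker lists fell. Of 19 tested dendritic cell or class II genes, 13 fell and 1 rose, against 26.2% and 24.2% of all genes tested. The summed level of this list was 2800 and 2851 CPM in wild-type cells against 935 and 944 CPM in TNFR2 KO cells. Itgad, the neighbour of Itgam and Itgax that encodes CD11d, another beta2 partner found on splenic macrophages, did not follow them. It measured 51.7 and 56.01 CPM in wild-type cells and 39.97 and 41.4 CPM in TNFR2 KO cells. The log2-fold change of Itgad was -0.41 (SE 0.0523, adjusted p = 3.76e-05 by edgeR). Whether myeloid cells contributed to the values of Itgam, Itgax or Itgad was not tested. Sequence shared between genes limits how surely reads were placed. Of the 31-base stretches of Itgax, 10.7% also occur in other genes, all in Itgad, and summing both genes gave a log2-fold change of 1.0004 (adjusted p = 6.06e-12 by edgeR). Of those of Itgam, 68.1% recur elsewhere, mainly in the overlapping gene Gm49368 on the same strand. Gm49368 was listed at only 2.62 ± 0.355 CPM in wild-type cells and 4.89 ± 1.25 CPM in TNFR2 KO cells (SD, n = 2 each), and adding it left the change of Itgam at 0.94.

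Itgal encodes the alpha chain of LFA-1, the ICAM receptor with which NK cells adhere firmly to their targets. It measured 1531 and 1544 CPM in wild-type cells and 1891 and 1919.9 CPM in TNFR2 KO cells. Its partner Itgb2 (chromosome 10, 77530252 to 77565708, plus strand) encodes the common beta chain that pairs with CD11a, CD11b, CD11c and CD11d. Itgb2 measured 1441 and 1437 CPM in wild-type cells and 1906 and 1937 CPM in TNFR2 KO cells. Neither gene showed overlap between the groups, and both rises were smaller than those of Itgam and Itgax. The log2-fold changes were 0.31 for Itgal (SE 0.0203, adjusted p = 7.70e-08 by edgeR) and 0.42 for Itgb2 (SE 0.0203, adjusted p = 4.51e-09 by edgeR), and they turned to -0.57 and -0.46 with scaling on NK lineage genes.

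**Figure D2:**
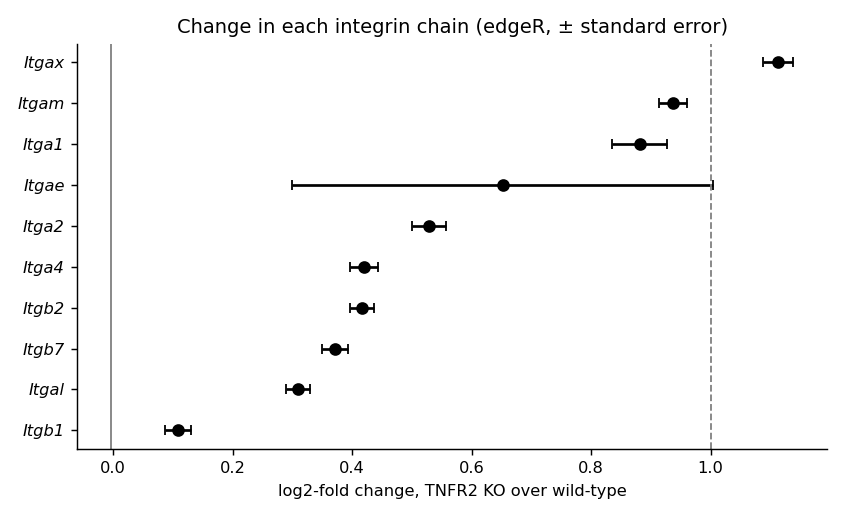
TNFR2 KO to wild-type log2-fold change (TMM scaling, edgeR) for each integrin chain, with bars of 1 standard error, a grey line at the median of all genes tested and a dashed line at the fold change threshold of 1. All points lie right of the grey line, from 0.11 for Itgb1 to 1.11 for Itgax, and the widest bar belongs to Itgae, the chain with the fewest counts; scaling on NK lineage genes turns 7 of the 10 below 0.

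Itgb1, the beta chain shared by the collagen and fibronectin receptors, lies on chromosome 8 (128685654 to 128733200, plus strand). It measured 1091 and 1067 CPM in wild-type cells and 1163 and 1164 CPM in TNFR2 KO cells. The groups did not overlap, but the gap was only a few times that between the wild-type duplicates. The log2-fold change was 0.11 (SE 0.0219, adjusted p = 0.00125 by edgeR), the smallest of the 10. The call was lost with library size alone as scaling (0.05, adjusted p = 0.0877 by edgeR) and the sign turned with scaling on NK lineage genes (-0.77).

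Among the chains described here, the alpha partners of Itgb1 (Itga1, Itga2 and Itga4) rose more than it did. Itga2, which encodes CD49b, the antigen seen by the DX5 antibody, measured 198 and 191 CPM in wild-type cells and 281 and 281 CPM in TNFR2 KO cells, a log2-fold change of 0.53 (SE 0.0284, adjusted p = 1.16e-08 by edgeR) that became -0.35 with scaling on NK lineage genes. Itga1, which encodes CD49a and marks type 1 innate lymphoid cells and resident NK cells, was far less abundant. It measured 38.02 and 38.6 CPM in wild-type cells and 68.7 and 72.6 CPM in TNFR2 KO cells, a log2-fold change of 0.88 (SE 0.0465, adjusted p = 1.02e-08 by edgeR) that became 0.003 (adjusted p = 0.962) with scaling on NK lineage genes. The 2 genes are neighbours on the minus strand of chromosome 13, Itga2 from 114833081 to 114932100 and Itga1 from 114953096 to 115101964. Of the 31-base stretches of Itga1, 3.52% recur in other genes, mainly in Gm49395, which overlaps it on the same strand. Of 11 other genes listed for type 1 innate lymphoid cells, 0 rose and 8 fell, against 24.2% and 26.2% of all genes tested. Il7r and Ltb of this list are also on the list of earlier NK stages. The median log2-fold change of the 11 was -0.70, with a summed level of 483 and 490.4 CPM in wild-type cells against 396 and 404 CPM in TNFR2 KO cells. The most abundant of them changed little, with Il21r at -0.02, Tnfsf10 at -0.08 and Cxcr6 at -0.20. Whether such cells contributed to the Itga1 values was not tested.

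Itga4, the alpha chain of VLA-4 and of the gut-homing receptor LPAM, binds VCAM-1, fibronectin and MAdCAM-1. On chromosome 2 (79255426 to 79333123, plus strand), it measured 722 and 701 CPM in wild-type cells and 947 and 955 CPM in TNFR2 KO cells. The groups lay well apart relative to the duplicates. Itgb7 (chromosome 15, 102215995 to 102231944, minus strand), the beta chain that takes Itga4 to MAdCAM-1, measured 822 and 836 CPM in wild-type cells and 1071 and 1074 CPM in TNFR2 KO cells. Their log2-fold changes were close, at 0.42 for Itga4 (SE 0.0237, adjusted p = 1.89e-08 by edgeR) and 0.37 for Itgb7 (SE 0.0220, adjusted p = 2.94e-08 by edgeR), and with scaling on NK lineage genes they were -0.46 and -0.51.

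Itgae, which encodes the CD103 chain that joins Itgb7 to bind E-cadherin, was barely detected. Its counts were 31 and 22 in wild-type and 45 and 34 in TNFR2 KO, or 0.817 and 0.597 CPM against 1.16 and 1.06 CPM. The TNFR2 KO values were above the wild-type ones, but the spread between the wild-type duplicates was wide relative to that gap. With a log2-fold change of 0.65 and an SE of 0.352 (adjusted p = 0.147 by edgeR), a difference was not detectable at this depth. Itgae lies on chromosome 11, from 73090583 to 73147446, on the plus strand. None of the 10 genes lies on chromosome 4, which carries Tnfrsf1b, or on chromosome 1, which carries Ptprc, the gene of CD45.

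Levels of different chains were compared only per length, as CPM per kb of the median GENCODE coding transcript. In wild-type the order ran from Itgb2 (485 ± 1.08 CPM per kb) through Itgal (339 ± 2.09), Itgb7 (309 ± 3.74), Itgb1 (283 ± 4.36), Itgax (157 ± 2.72), Itgam (88.4 ± 0.346), Itga4 (72.8 ± 1.52), Itga2 (27.4 ± 0.711) and Itga1 (3.49 ± 0.0390) to Itgae (0.184 ± 0.0406), all as SD with n = 2. The beta chains and Itgal thus headed the order. No 2 neighbours overlapped between duplicates in either genotype. In TNFR2 KO the order differed in 1 place, where Itgax (340.4 ± 6.95 CPM per kb) passed Itgb1 (305 ± 0.213). Lengths are uncertain where genes have several transcripts, and with the union of all annotated exons Itgal stood below Itgb7 and Itgb1 in wild-type, and Itgax stayed below Itgb1 in TNFR2 KO.

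Ratios of 2 genes within a library do not depend on how libraries are scaled. Itgam counts per Itgb2 count were 0.255 and 0.258 in the wild-type libraries and 0.371 and 0.365 in the TNFR2 KO libraries. Itgax counts per Itgb2 count were 0.291 and 0.285 in wild-type and 0.463 and 0.469 in TNFR2 KO. For both chains the groups lay far apart and duplicates nearly coincided, so the 2 alpha chains gained on their shared beta chain, by 0.52 and 0.70 on the log2 scale. Itgal lost ground instead, with 1.06 and 1.07 counts per Itgb2 count in wild-type and 0.992 and 0.991 in TNFR2 KO, a difference of -0.11. Of all beta2 alpha chains per length (Itgal, Itgam, Itgax and Itgad), Itgal made up 56.5% and 56.9% in wild-type and 44.8% and 44.7% in TNFR2 KO. The share of Itgax went from 26.6% and 26.0% to 36.0% and 36.4%, that of Itgam from 14.7% and 14.8% to 18.2% and 17.8%, and that of Itgad from 2.18% and 2.36% to 1.08% and 1.10%.

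The same comparison was made for the beta1 and beta7 families. Relative to Itgb1, the differences between genotypes on the log2 scale were 0.77 for Itga1 (SD 0.0384 in wild-type and 0.0563 in TNFR2 KO, n = 2 each), 0.42 for Itga2 (SD 0.0152 and 0.000382) and 0.31 for Itga4 (SD 0.00788 and 0.00719). The groups did not overlap for any of these 3 alpha chains. Relative to Itgb7, Itga4 differed by 0.05, about the SD of 0.0476 between the wild-type duplicates, and by 0.01 and 0.09 within the pools of spleens. These groups did not overlap either, at 0.878 and 0.838 Itga4 counts per Itgb7 count in wild-type and 0.884 and 0.889 in TNFR2 KO. Itgae relative to Itgb7 overlapped between genotypes. With 2 libraries against 2, the exact two-sided permutation test cannot go below 0.333, and that was its value for the 7 ratios other than Itgae to Itgb7 (0.667).

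**Figure D3:**
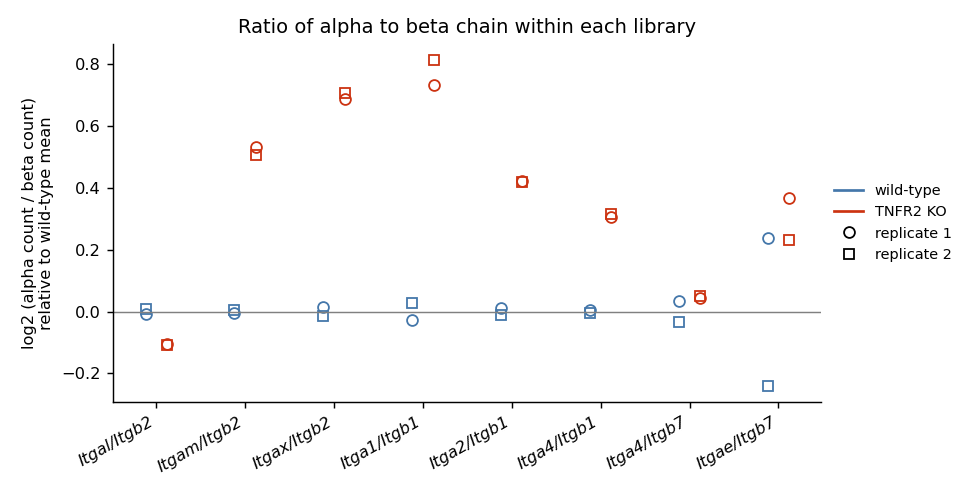
Log2 ratio of alpha chain to beta chain counts in each library, set to 0 at the wild-type mean of each pair, with wild-type in blue, TNFR2 KO in red, circles for replicate 1 and squares for replicate 2. The TNFR2 KO libraries lie above the wild-type ones for Itgam and Itgax over Itgb2 and for Itga1, Itga2 and Itga4 over Itgb1, below them for Itgal over Itgb2, and near or among them for both Itgb7 pairs.

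The remaining integrin chains did not move as a block. Of 17 others listed, 14 were tested, and 5 rose and 6 fell, against 24.2% and 26.2% of all genes tested. The median log2-fold change of the 14 was -0.15. Itgav, Itgb3 and Itga6, the chains of vitronectin and laminin receptors, rose from wild-type means of 52.1 ± 1.91, 70.5 ± 0.639 and 53.1 ± 4.14 CPM to TNFR2 KO means of 73.3 ± 0.455, 79.2 ± 0.0557 and 69.4 ± 1.68 CPM (SD over 2 libraries), with log2-fold changes of 0.49, 0.17 and 0.38 that all turned negative with scaling on NK lineage genes. Itga3 and Itgb4, both under 10 CPM, rose by 0.49, which also turned negative there, and 1.35. The falling chains were Itgad, Itga2b, Itga9, Itgb5, Itga8 and Itgb2l. Itga2b, the platelet integrin chain CD41, fell from 34.1 and 31.8 CPM to 2.30 and 2.03 CPM (log2-fold change -3.92, SE 0.100, adjusted p = 8.58e-12 by edgeR), beside a fall in 10 of 11 tested megakaryocyte or platelet markers, a list that includes it. Itga9 and Itgb5 had log2-fold changes of -2.86 and -2.08. Itga8 went from 67 and 46 counts to 2 and 2 counts and Itgb2l from 17 and 20 counts to 1 and 4 counts, too few to size their changes. Itga5, Itga7 and Itga10 did not pass the test, at -0.14, 0.05 (negative with library size alone and with scaling on NK lineage genes) and -0.15 on the log2 scale.

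Among 28 ligand genes, 19 were tested, and 12 fell and 3 rose, against 26.2% and 24.2% of all genes tested. Past an absolute log2-fold change of 1 as well, 9 fell and 2 rose, against 11.8% and 1.56% of all genes tested. The median log2-fold change of the 19 was -1.16. Icam1, a ligand of the beta2 integrins, measured 186 and 186 CPM in wild-type cells and 142 and 138 CPM in TNFR2 KO cells (log2-fold change -0.41, adjusted p = 2.14e-07 by edgeR). C3, whose fragment iC3b is bound by CD11b and CD11c, fell from 291 ± 1.19 to 25.3 ± 0.0988 CPM (log2-fold change -3.53, adjusted p = 3.19e-15 by edgeR). Cdh1, which encodes the E-cadherin bound by CD103, and Lama5, a laminin chain, fell by 4.20 and 3.30 on the log2 scale. The fall in C3 and Cdh1 stood beside the fall in macrophage and other marker lists given above. Spp1, which encodes osteopontin, a ligand of several alpha4 and alphaV integrins, rose from 158 ± 2.70 to 454 ± 14.98 CPM (log2-fold change 1.52, adjusted p = 9.70e-13 by edgeR), and Jam2, which binds VLA-4, rose by 1.16. Both remained higher with scaling on NK lineage genes.

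Genes that switch integrins on from inside the cell showed mostly small changes. Of 42 listed, 40 were tested, and 17 rose and 11 fell, against 24.2% and 26.2% of all genes tested. The median log2-fold change of the 40 was 0.05. Past an absolute log2-fold change of 1 as well, 0 rose and 6 fell, against 1.56% and 11.8% of all genes tested. Tln1, which encodes talin, the adaptor that binds beta tails, measured 1320.1 and 1344 CPM in wild-type cells and 1574 and 1647 CPM in TNFR2 KO cells, a log2-fold change of 0.27 (adjusted p = 1.68e-06 by edgeR). Flna, a filamin that competes for the same tails, and Rap1b, the GTPase upstream of talin, rose by 0.10 and 0.13. All 3 turned lower with scaling on NK lineage genes. Parvb, a parvin, and Actn1, an actinin, fell by 2.35 and 1.07 on the log2 scale.

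**Figure D4:**
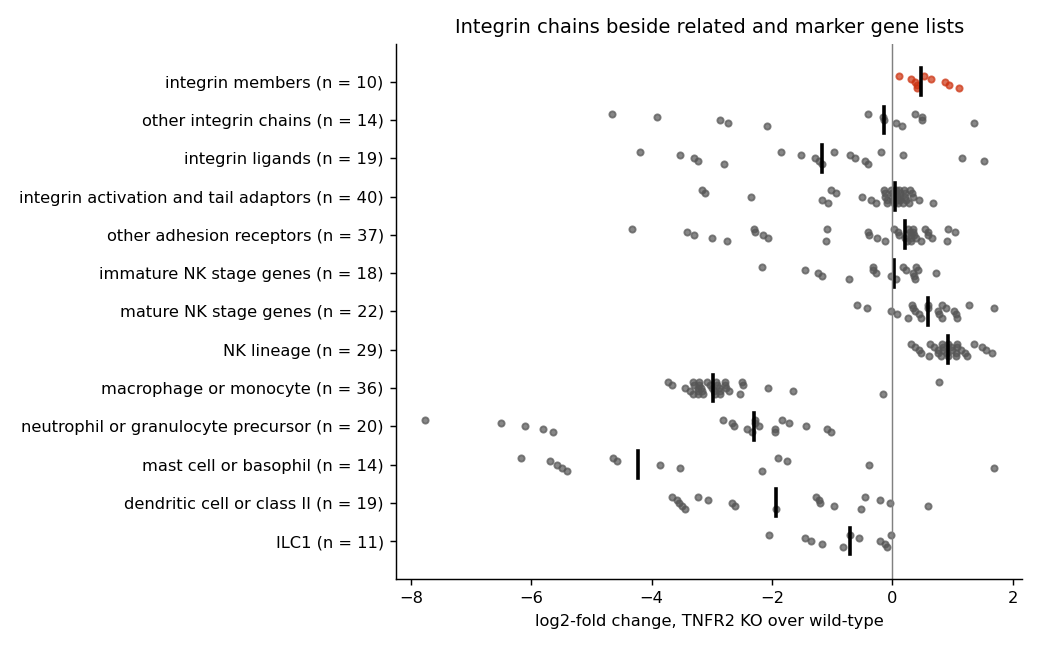
TNFR2 KO to wild-type log2-fold change (TMM scaling) of every tested gene in the integrin set (red) and in related and marker lists (grey), with a black bar at each median and the number of genes beside each name. The integrin set lies wholly above 0 with a median of 0.47. The nearest medians drawn are 0.60 for mature NK stage genes and 0.22 for other adhesion receptors. NK lineage genes centre on 0.92, integrin adaptors on 0.05 and macrophage or monocyte markers on -2.98. With scaling on NK lineage genes the median of the integrin set is -0.40.

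Genes of NK cell stages were set beside the integrins used to stage them. Of 22 tested genes of mature NK cells, 18 rose and 2 fell, against 24.2% and 26.2% of all genes tested. The median log2-fold change of the 22 was 0.60. The summed level of this list was 17731 and 17774 CPM in wild-type cells and 31531 and 31989 CPM in TNFR2 KO cells, with Gzma and Gzmb, which are also on the NK lineage list, as its most abundant genes. Cma1, a chymase that is also on the mast cell list, rose from 22.5 ± 0.829 to 72.6 ± 0.946 CPM (log2-fold change 1.69, adjusted p = 3.61e-11 by edgeR), and Ccl5 rose by 1.28. Klrg1, the inhibitory receptor of the most mature stage, named after its values were seen, measured 289 and 281 CPM in wild-type cells and 489 and 488 CPM in TNFR2 KO cells (log2-fold change 0.78, adjusted p = 1.10e-10 by edgeR), which turned to -0.10 (adjusted p = 0.00325) with scaling on NK lineage genes. Under that scaling, 5 genes of the list were higher and 15 lower, with Cma1 and Ccl5 among the higher ones.

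The list of earlier stages was divided. Of 18 genes, 7 rose and 8 fell, against 24.2% and 26.2% of all genes tested. The median log2-fold change of the 18 was 0.02. Cd27, the receptor that is read against CD11b to stage NK cells and was also named after its values were seen, measured 53.02 and 49.8 CPM in wild-type cells and 65.4 and 69.3 CPM in TNFR2 KO cells (log2-fold change 0.39, adjusted p = 2.66e-05 by edgeR), a smaller rise than that of Itgam. Of its most abundant genes, Thy1 rose by 0.38 and Ly6e fell by 0.33. Kit, Emb and Ltb fell by 2.17, 1.23 and 1.16 on the log2 scale, and Kit is also on the mast cell or basophil list. With scaling on NK lineage genes, 0 of these 18 genes rose and 17 fell, with Cd27 at -0.49 and Thy1 at -0.50.

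Other adhesion receptors were mixed as well. Of 40 listed, 37 were tested, and 20 rose and 14 fell, against 24.2% and 26.2% of all genes tested. Past an absolute log2-fold change of 1 as well, 1 rose and 11 fell, against 1.56% and 11.8% of all genes tested. The median log2-fold change of the 37 was 0.22, which became -0.66 with scaling on NK lineage genes. Selplg, the P-selectin ligand that starts rolling before integrins arrest a cell, measured 722 and 740 CPM in wild-type cells and 1152 and 1154 CPM in TNFR2 KO cells (log2-fold change 0.66, adjusted p = 1.66e-10 by edgeR). Spn (CD43) and Cd53, also abundant, rose by 0.35 and 0.22, and all 3 turned lower with scaling on NK lineage genes. Mcam rose by 1.05, whereas Cd63, Sdc4 and Cadm1 fell by 4.33, 3.41 and 3.00 on the log2 scale.

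**Figure D5:**
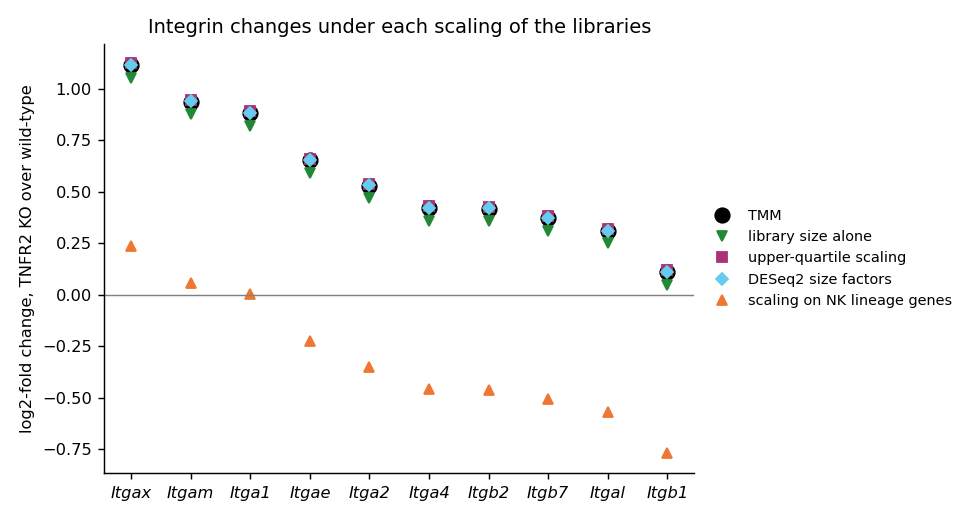
TNFR2 KO to wild-type log2-fold change for each integrin chain under TMM (black circles) and under 4 other scalings of the libraries (coloured symbols). TMM, upper-quartile scaling and DESeq2 size factors nearly coincide, library size alone lies slightly lower, and scaling on NK lineage genes lowers every chain alike, leaving Itgax at 0.23, Itgam at 0.06 and Itga1 at 0.003, with the other 7 below 0.

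A change of scaling shifts all genes by nearly the same amount, so the order of the chains is kept by construction. For the same reason, values relative to the median of all genes hardly differ between scalings. With NK lineage genes as reference, as with TMM, Itgax was higher than that median by 1.12 and Itgb1 by 0.11 on the log2 scale. The NK lineage genes used as that reference were themselves all higher under TMM, and Gzma, Gzmb and Il2rb supply most of their counts.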

How the data were processed

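Per the labels and the study's methods, polyA RNA was sequenced as stranded paired-end libraries, and the authors trimmed reads with Trimmomatic 1.4, assigned them to mm10 transcripts with kallisto 0.46.1 and summed them per gene with Tximport. The authors deposited the resulting expected counts (estimated counts) per gene symbol, not scaled between libraries; their annotation: not given in the sources used here. A row without a gene name (0.0559% to 0.0728% of counts) was left out.

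Counts were rounded, filtered with filterByExpr, scaled with TMM and tested with edgeR 4.0.16 (R 4.3.3), genotype being the only term; standard errors are the log2-fold change divided by the square root of F. Alternatives were DESeq2 1.42.0, 4 other scalings, no filter, a filter at 10 CPM on average, the replicate number as a block, and each library left out. Steps were tested on simulated data. The labels say that same-numbered libraries share a pool of spleens, so the numbers pair the samples; deviations of same-numbered libraries had a correlation of 0.0487 over 13822 genes and 0.149 over the 8763 genes at a mean of at least 10 CPM. Duplicates differed by more than counting noise (mean chi-square per gene 3.37 and 3.58).

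Positions, lengths and shared 31-base stretches come from GENCODE M21 (GRCm38), which matched all 10 chains, and promoters from RefSeq (GRCm38.p6). Protein sequences were not used here. Named genes are the 10 chains, Tnfrsf1b, all tested integrin chains, the 3 most abundant genes of each related list and up to 3 per direction with the largest changes past both thresholds at a mean of at least 5 CPM; of marker lists, only summaries and genes needed beside a result are given. Gm49368, Gm49395, Klrg1, Cd27, Clec4f and Ptprc fall outside that rule and were chosen after the data were seen. Some genes that the rule names are not reported here. The members and lists were chosen with earlier results of these data known. Of the other marker lists, 11 of 13 tested erythroid genes fell and 1 rose, and 2 of 5 B cell genes fell and 2 rose. Among T cell genes, 8 of 15 fell and 4 rose, and among stromal or endothelial genes, 5 of 9 fell and 1 rose. Over all genes tested, 26.2% fell and 24.2% rose at an adjusted p under 0.05.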

Additional observations from a re-analysis of the deposited data

How the results depend on the processing

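Of the 12 alternatives, scaling on NK lineage genes changed most. It gave 4804 genes past both thresholds instead of 1842, 0 integrin chains past both instead of 1, and 2 chains higher and 6 lower at an adjusted p under 0.05 instead of 9 and 0. Log2-fold changes reversed to -0.57 (Itgal), -0.46 (Itgb2), -0.35 (Itga2), -0.46 (Itga4), -0.22 (Itgae), -0.77 (Itgb1) and -0.51 (Itgb7). By construction it sets the summed NK lineage counts equal between libraries. A mean of at least 10 CPM left 480 genes past both thresholds among 8765 tested and dropped Itgae. Library size alone ended the call on Itgb1. The replicate block, which pairs libraries of the same pool, gave 1830 genes and the same counts of integrin chains (1 past both thresholds, 9 higher), and changed no call on a chain; within the pairs, the Itgam to Itgb2 difference was 0.54 and 0.50 and the Itgax to Itgb2 difference 0.67 and 0.72. Without any 1 library, between 1650.0 and 1867 genes passed both thresholds, and 9 chains were higher each time. DESeq2 gave 1603 genes and also called 9 chains higher. Summing Itgam with Gm49368 or Itgax with Itgad was added after seeing the data. Itgae, with 22 to 45 counts per library, is limited by depth.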
